A study of Mus musculus with 8 samples.

Results

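The change of normal mouse footpad skin over 1 day of development, from embryonic day E15.5 to E16.5, was measured on 4 of the 8 expression arrays of the series. The members were chosen by sample title alone: wild-type embryos of the C57BL/6 strain, 2 arrays at E15.5 and 2 at E16.5. The other 4 arrays hold footpad skin of embryos of the same strain and ages with a skin-specific Dkk4 transgene, and they serve here for the shared estimate of spread and for comparison. The promoter that drives the transgene and the number of animals behind each array are not stated in the labels. Each array carries the footpad RNA in Cy3 and, in Cy5, a common reference of pooled RNA from cultured mouse cell lines mixed with 129ES embryonic stem cell RNA. The design names duplicate sets of samples and gives no embryo or litter for them. Every p-value therefore reflects the spread among the deposited samples alone, and that spread may be technical.

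In mice, eccrine sweat glands form in the skin of the footpads and hardly anywhere else. Around these days the footpad epidermis thickens into gland germs, while the surrounding epidermis stratifies and begins to build its barrier. Wnt, Eda, BMP, FGF and Hedgehog signals are known to act in the making of skin appendages, and Dkk4 is a secreted inhibitor of the canonical Wnt pathway.

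The files pair none of the 42006 probes with a gene. Probes were therefore placed through exact matches of at least 30 bases to RefSeq promoter windows, which run from 250 bases before to 50 bases after a gene's start, and to miRNA hairpins of GRCm38.p6. This gave 422 probes a single place, and 278 of them a single gene on the same strand, for 272 genes. Of 513 genes listed for skin layers, glands, signalling pathways and other cell types, 3 had such a probe. Acta2, the smooth muscle actin also made by gland myoepithelium, had log2 ratios of 0.16 and 0.13 at E15.5 and 0.03 and -0.02 at E16.5 and was not past the threshold (adjusted p = 0.121, limma). Its probe was well above background on 2 of the 4 arrays. Pax7, a transcription factor of muscle precursors and neural tube, was lower at E16.5 and is described with the placed genes. Retn, an adipose hormone, was not well above background on both arrays of any group. The tissue label could thus not be checked against the markers of keratinocytes, dermis or glands, and the pathways named above could not be read.

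Of 42006 probes, 31626 were tested. A probe was tested if its Cy3 signal was well above background in each replicate of 1 or more of the 4 groups. On the wild-type arrays, 75% and 76.5% of spots were well above background at E15.5, against 72.0% and 67.1% at E16.5. All E15.5 arrays shared 1 slide and 1 scan day. The E16.5 wild-type arrays shared another slide and scan day, so that age and slide cannot be told apart. The E16.5 transgenic arrays shared a further slide and scan day, so genotype and slide cannot be told apart at that age. Replicate log ratios correlated across probes at 0.995 at both ages. The 2 arrays a group limit the precision of every value below.

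A shift in 1 day was found for 6873 probes, 21.7% of those tested, with 3284 higher at E16.5 (10.4%) and 3589 lower (11.3%) at an adjusted p under 0.05 in limma. Most changes were slight. Called changes had a median size of 0.26 on the log2 scale, with quartiles of 0.21 and 0.36, and 93.2% were under 1.5-fold. At least 2-fold, 54 probes rose (0.171% of probes tested) and 51 fell (0.161%). At least 8-fold, 4 rose and 3 fell. Wild-type groups did not overlap in any of the called probes, and also not in 62.6% of all probes tested. Calls were scarcer among dim probes: with tested probes in 4 equal classes of net Cy3 intensity, 3.62% rose and 3.53% fell in the dimmest class, against 12.5% and 15.6% in the brightest. Without E15.5 replicate 1 or replicate 2, 2883 and 2577 probes were called, and without E16.5 replicate 1 or replicate 2, 4538 and 2729. The split between directions moved with the scaling. Of the calls, 47.8% were higher at E16.5 after loess, 37.1% after median centring and 28.8% with Agilent's processed signals. Median centring also gave all probes the same spread in the fit.

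**Figure D1:**
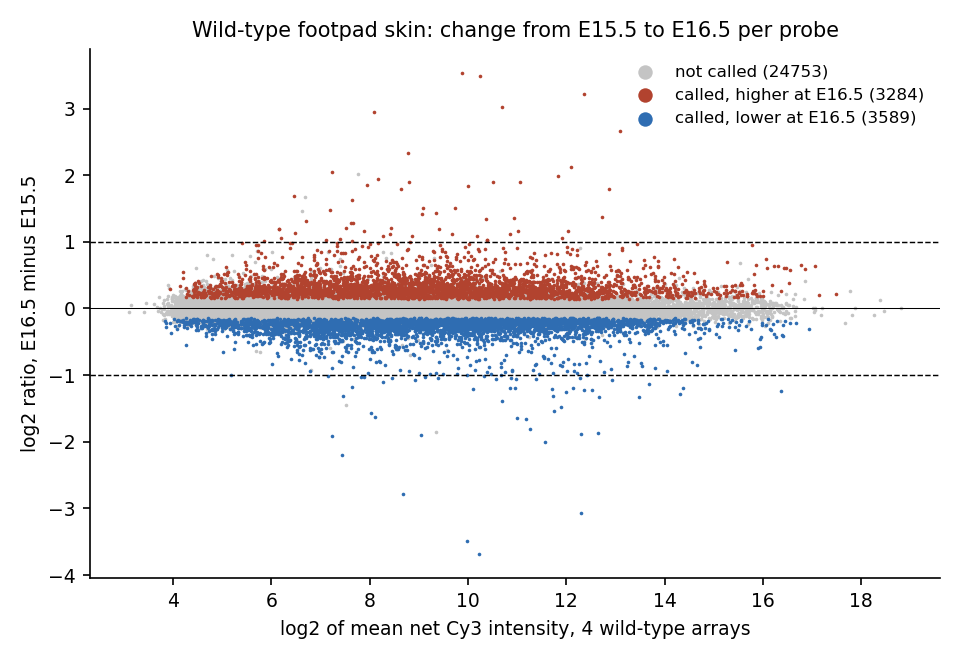
Change of the log2 ratio of footpad to reference RNA between the ages in wild type, E16.5 minus E15.5 (vertical) against the log2 of the mean net Cy3 intensity over the 4 wild-type arrays (horizontal), 1 point a probe, with dashed lines at 2-fold. The 3284 probes called higher and 3589 called lower lie mostly close to 0, and 105 lie past 2-fold.

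Probes that overlap in sequence gave a measure of repeatability within the arrays. Among the tested probes, 912 pairs shared at least 25 contiguous bases, and their age changes correlated at 0.90 over pairs, which share arrays and sequence. Of 321 pairs with at least 1 called probe, 305 had the same sign (95%). The median gap within a pair was 0.05 on the log2 scale.

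The strongest rises of the day were a small set. The probe Z00059773-1 had log2 ratios of 0.05 and -1.48 at E15.5 and 2.37 and 3.26 at E16.5, a rise of 3.53 (SE 0.45, adjusted p = 0.00239, limma), or 11.5-fold. Its net Cy3 intensity went from 156 and 25.9 to 1076 and 2533. The probe Z00041156-1 rose by 3.49 (SE 0.46, adjusted p = 0.00273), with ratios of -0.06 and -1.72 at E15.5 and 2.22 and 2.98 at E16.5. In both, the groups were far apart, and the lowest value was that of E15.5 replicate 2. The probes share 40 bases and so read the same or nearly the same transcript. No RefSeq window used here held them. Their values are printed with 30 of the shared bases, and with the shared stretches of the other families of overlapping probes in which every member was called in the same direction and at least 2 changed 2-fold or more.
Strongest rise, pair: ttgtcctcatgaaacgacaatgcccatttg
Rise, family of 3 (1.42 to 1.89): ttcctagtagagcttctagtcttgct
Rise, family of 3 (1.21 to 1.80): tcaagaaaagcccagctagtcttgtttt
Fall, pair (-1.06 and -1.04): aagcgccaccgcaaagtgctgcgcga
In each of these families the members moved by similar amounts, so a single transcript can stand behind several of the largest changes and the counts are of probes.

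The replicates of the risers were not alike. Over the 54 probes that rose at least 2-fold, the median log2 ratio was 1.06 and 0.48 in E15.5 replicates 1 and 2, and 2.17 and 2.42 in E16.5 replicates 1 and 2. Replicate 1 lay above replicate 2 at E15.5 in 53 of 54 of them, against 15470 of the 31626 probes tested. At E16.5, replicate 2 lay above replicate 1 in 52 of 54. The gap at E15.5 was over 0.5 on the log2 scale in 31 of the 54 probes (57.4%) and in 0.304% of all probes tested.

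This gap could be read in arrays that had no part in it. There were 60 probes in which wild-type E15.5 replicate 1 exceeded replicate 2 by more than 0.5. In the transgenic footpads, which are other arrays, 41 of these 60 were called higher at E16.5 and 0 lower, with 51 positive values and a median change of 1.5, whereas 16.3% of all probes were called higher there. Among the 36 probes in which E15.5 replicate 2 exceeded replicate 1 by more than 0.5, 0 were called higher in the transgenic footpads and 1 lower, with a median change of -0.23. In limma, 5151 and 5684 of the 31626 probes were called higher and lower in the transgenic footpads. In wild type itself, where the gap enters the change, 50 of the 60 and 32 of the 36 had a positive value, with medians of 1.12 and 0.35. In the 36, replicate 2 was thus mostly the array nearer to E16.5. Exact ages of the embryos beyond the label were not used here, and their part in the gap was not tested. Without E15.5 replicate 1, 85 probes rose at least 2-fold, and without replicate 2, 31 did. Without E16.5 replicate 1 or 2 the number was 75 and 30.

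The reference channel moved with the strongest rises. When Cy3 was read alone, 17 probes rose by more than 2 on the log2 scale, and Cy5 alone was higher at E16.5 in all 17, by a median of 1.01. Of the 76 probes that rose by 1 to 2 in Cy3 alone, Cy5 was higher in 70, by a median of 0.33. In the 6 probes with Cy3 alone down by more than 2, Cy5 was higher in 4, with a median of 0.04. In the 47 down by 1 to 2 it was higher in 11, with a median of -0.08, so that Cy5 mostly went the way of Cy3 there too. Between these classes Cy5 was higher in 14859 of 31480. The reference is the same RNA on all arrays, yet Cy5 alone rose by 0.22 to 3.73 in the 17 probes. With Cy5 higher, their median change was 2.05 in the ratio against 3.53 in Cy3 alone. For the pair above, Cy3 alone rose by 3.92 and 4.12. In the whole table, 35 probes passed in Cy5 alone (0.111%) and 6914 in Cy3 alone. The ratio was called too for 4554 of the latter with the same sign and for 4 with the opposite one. What moved Cy5 in these spots was not tested.

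**Figure D2:**
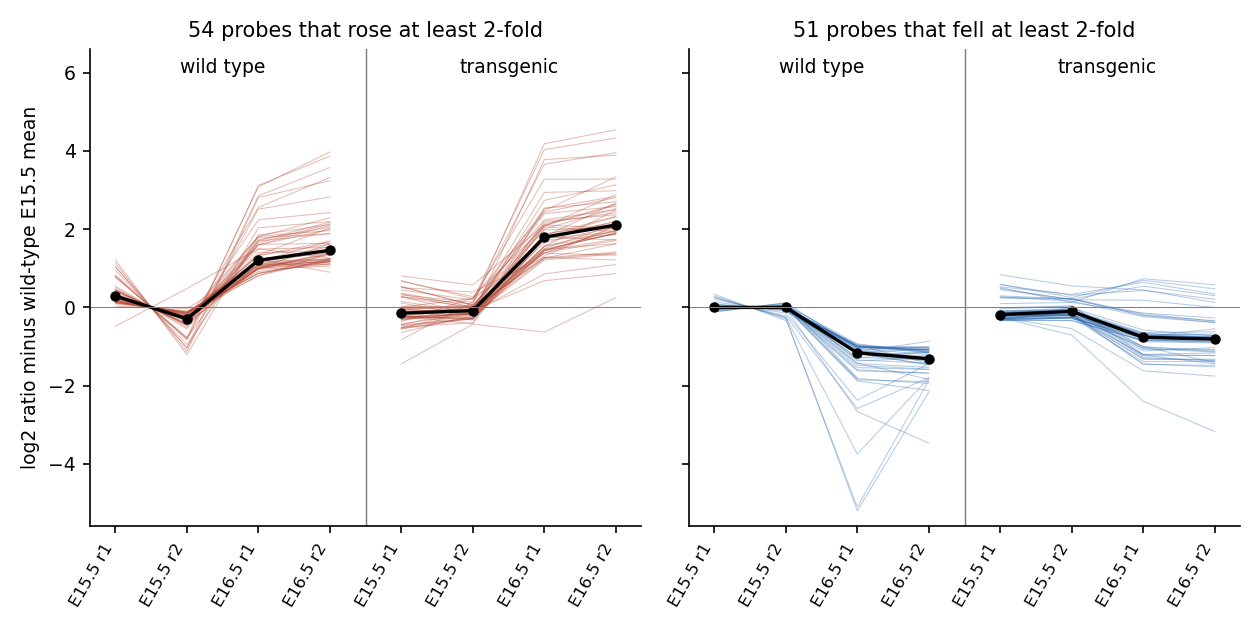
Log2 ratio minus the wild-type E15.5 mean of the same probe (vertical) on each of the 8 arrays (horizontal), for the 54 probes that rose and the 51 that fell at least 2-fold in wild type, 1 thin line a probe, with black points and lines for the median. Among the risers, E15.5 replicate 1 sits above replicate 2 in 53 of 54 lines, and among the fallers a few lines drop far in E16.5 replicate 1 of wild type and stay level in the transgenic arrays.

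Among the 51 strongest falls, 32 probes were rich in G and C and 19 were not. Of the 19, 12 were called lower in the transgenic footpads too, where 18% of all tested probes were. These 12 include a probe whose net Cy3 intensity rose, from 315 and 386 at E15.5 to 654 and 868 at E16.5. Its Cy3 alone was higher by 1.17 and its Cy5 alone by 2.40, so its ratio changed by -1.03 through the reference channel. The other 7 of the 19 fell at least 2-fold in wild type and were not called in the transgenic footpads. They are a set picked after the values were seen and described without a test of its own. The probe Z00064853-1 had ratios of 0.39 and -0.13 at E15.5 and -5.07 and -2.03 at E16.5, a change of -3.68 (SE 0.77, adjusted p = 0.0139, limma). Its net Cy3 intensity went from 2507 and 1811 to 28.7 and 462. In the transgenic footpads it stayed at 0.72 and 0.38 at E15.5 and 0.82 and 0.60 at E16.5. The high arrays were thus all but the wild-type E16.5 pair, and within that pair replicate 1 was by far the lower. Its call was lost without either E15.5 array, with Agilent's processed signals and with a trended, robust prior.

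The other 6 followed the same order of arrays. A second probe had net Cy3 intensities of 911 and 567 at E15.5 and 22.6 and 140 at E16.5, and another 1114 and 747 against 41.3 and 205. For the latter, E16.5 replicate 1 was left out of the fit as an outlier spot, so its change of -1.89 rests on replicate 2. Across the 7 probes, wild-type changes ran from -3.68 to -1.0, and those of the transgenic footpads from -0.41 to 0.34. Replicate 1 was below replicate 2 at E16.5 in all 6 that had both values. The difference between genotypes was past the threshold in 0 of 7, with adjusted p of 0.0777 to 0.176 in limma. It was past it in 4 without E16.5 replicate 2 and in 1 without E16.5 replicate 1. All 7 held under 60% G and C, and none matched a RefSeq window used here. Whether they read separate transcripts was not tested. A stretch of 30 bases identifies each of the 3 probes given by value, in the order of the text.
Z00064853-1: atgttcttgtgaacttgcatgcttgaactg
Net Cy3 911 and 567 at E15.5: aaattttccatggaccatagaatgatagtt
Net Cy3 1114 and 747 at E15.5: tgcttgttcaatctggtgtgtgttgggaga
Z00047077-1, one of the 12 probes called lower in both genotypes and with under 60% G and C, had ratios of 6.80 and 6.75 at E15.5 and 4.11 and 3.30 at E16.5, a change of -3.07 (SE 0.30, adjusted p = 0.000821). It changed by -2.30 in the transgenic footpads, and the difference between genotypes was not past the threshold (adjusted p = 0.361).

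The larger part of the 51 falls was rich in G and C. Of the 51 probes that fell at least 2-fold, 32 (62.7%) held at least 60% G and C, against 5.57% of all probes tested and 2 of the 54 risers. Median G and C content was 61.7% in the fallers and 45% in the risers and in all tested probes. This relation was noticed after the values were seen. Unlike the 7 above, these 32 had close replicates: their median log2 ratios were -0.73 and -0.71 at E15.5 and -1.75 and -1.85 at E16.5. All 32 were also called lower in the transgenic footpads, with changes of -1.30 to -0.42, where 18% of all tested probes were called lower. The 5 below show the kind of sequence, as the 30 bases richest in G and C, with CG dinucleotides in capitals.
Change -2.0: ccCGgggCGaCGctCGggttggctttgcCG
Change -1.88: ccctccCGCGtggtttgactgtctCGcCGg
Change -1.65: gacccCGaCGgggtCGgtcCGgcCGcatgc
Change -1.53: gtCGctCGtCGacctccccctcctcCGtcc
Change -1.32: CGcacCGtgCGccCGcCGcCGcacCGcacc
The first of them had ratios of -1.31 and -1.29 at E15.5 and -3.18 and -3.42 at E16.5, and a net Cy3 intensity that went from 4750 and 5200 to 1256 and 918.

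Over all tested probes, the share that fell in wild type was highest in the classes richest in G and C. In probes with 70% or more G and C, 32.9% of 255 fell and 7.06% rose. With 60 to under 70%, 15.8% of 1506 fell and 7.90% rose. In the classes below 60%, 10.1% to 11.8% fell and 7.64% to 11.2% rose. The median change was -0.091 in the highest class and -0.034 in the next, against -0.009 over all probes. In the highest class, Cy3 alone had a median of -0.108 and Cy5 alone -0.023. In the transgenic footpads 32.2% of the highest class was called lower, but 17.8% of the next class, against 14.4% to 21.6% in the classes below 60%. Without any 1 of the wild-type arrays, 25.5% to 29.0% of the highest class fell. With Agilent's processed signals, 288 probes fell at least 2-fold and 55 of them (19.1%) held 60% or more G and C. In the deposited value table it was 16.9% of 124. Amplification, labelling or hybridisation of such sequences, which can vary between slides, was not tested.

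**Figure D3:**
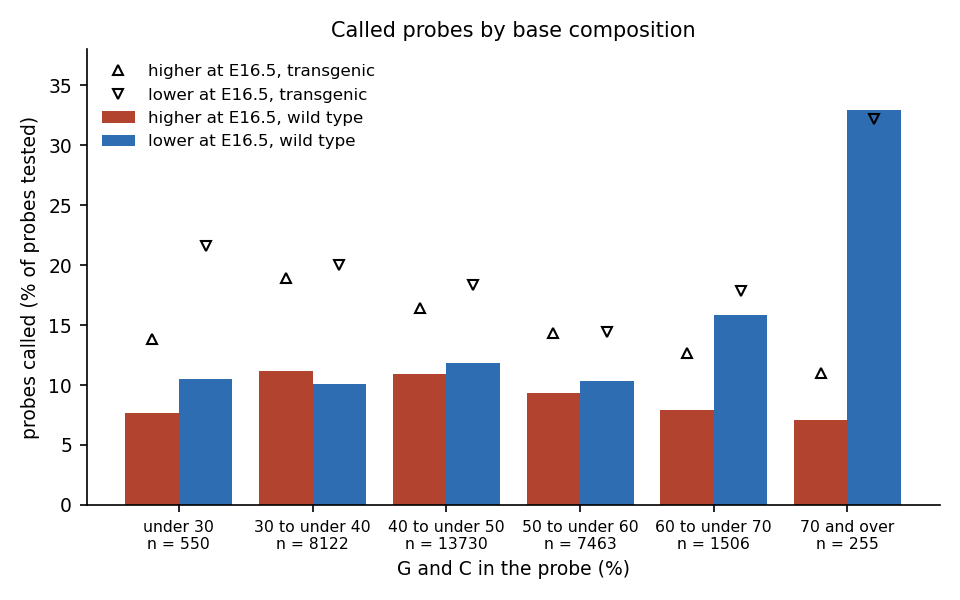
Share of tested probes called higher or lower at E16.5 (vertical, %) by the G and C content of the probe (horizontal, %), as bars for wild type and triangles for the transgenic footpads, with the number of probes under each class. The share called lower in wild type is 32.9% in the class of 70% and over and 15.8% or less in every other class.

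The placed genes add names to the picture, with the same limit. Of the 278 probes with a gene, 198 were tested, for 192 genes. In wild type, 9 of these probes rose (4.55%) and 38 fell (19.2%), against 10.4% and 11.3% of all probes tested. These probes were richer in G and C than the rest, with a median of 56.7% against 45%, and 90 of the 198 lay over 250 bases from the gene start. Among the 73 with at least 60% G and C, 24 fell (32.9%) and 4 rose, and among the other 125, 14 fell (11.2%) and 5 rose (4%). Over all tested probes with under 60%, 10.9% fell and 10.5% rose. Over all tested probes with at least 60%, 18.3% fell. A probe was placed by its genomic sequence, and whether a place deep inside a gene is exonic could not be read without exon models.

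**Figure D4:**
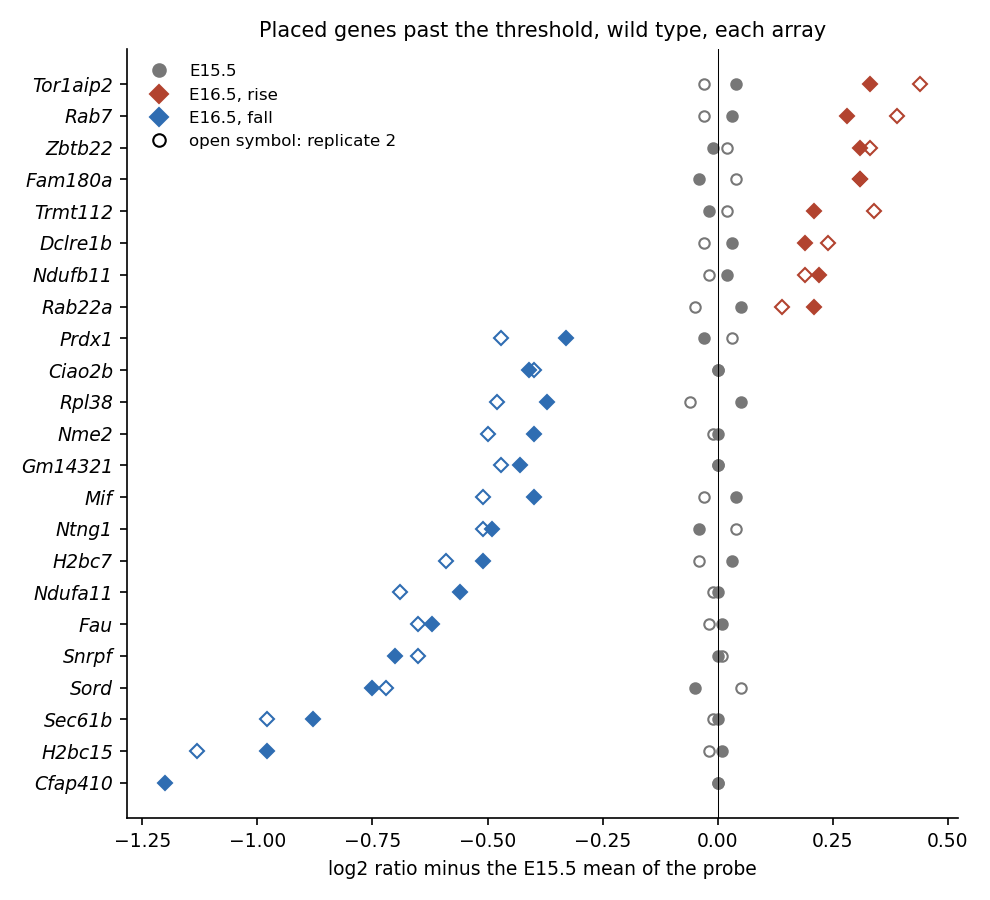
Log2 ratio on each wild-type array minus the E15.5 mean of the same probe (horizontal), for the 8 placed genes with a rise and the 15 with the largest falls (vertical), as circles for E15.5 and diamonds for E16.5, with open symbols for replicate 2. The E16.5 values of every gene lie clear of its E15.5 values, which the rule for choosing the genes required. Changes run from -1.20 for Cfap410 to 0.38 for Tor1aip2, and Cfap410 has 1 E16.5 value.

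Genes of the protein-making machinery were among the falls. Fau (gene 14109) encodes a ubiquitin-like protein fused to a small-subunit ribosomal protein. Its probe lay at chr19:6057955-6057996 on the plus strand, 8 bases into the gene, and its log2 ratio was -1.23 ± 0.02 (SD, n = 2) at E15.5 and -1.87 ± 0.02 (SD, n = 2) at E16.5. This was a change of -0.64 (SE 0.04, adjusted p = 0.00012, limma), and the transgenic footpads changed by -0.62. Rpl38, a protein of the large subunit, changed by -0.42 (SE 0.07, adjusted p = 0.00546) with 1 probe, while a second probe of the gene, 12 bases upstream, gave 0.06 (adjusted p = 0.512). Rpl38 is therefore not settled by these probes. Rpl10a, also of the large subunit, changed by -0.28 (adjusted p = 0.0309), Rps27l, a ribosomal protein paralogue, by -0.28 (adjusted p = 0.00426), and Mrps21, of the mitochondrial ribosome, by -0.38 (adjusted p = 0.00192). All 5 genes of this group, Rpl38 among them, had a probe called lower, with a median change of -0.38. In the transgenic footpads the median of the 5 was -0.11. Over all probes 11.3% were called lower, with a median of -0.009, and 32.9% of the placed probes with at least 60% G and C were. Each of these called probes held at least 60% G and C. Sec61b, a subunit of the channel through which new proteins enter the endoplasmic reticulum, had ratios of 0.05 and 0.04 at E15.5 and -0.83 and -0.93 at E16.5. Its change was -0.93 (SE 0.05, adjusted p = 4.91e-05), with 55.0% G and C in the probe, and -0.72 in the transgenic footpads.

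Histone genes fell in part. H2bc15 (gene 319187) and H2bc7 (gene 319180) encode H2B, a core histone made in bulk while cells replicate their DNA. H2bc15 had ratios of -1.02 and -1.05 at E15.5 and -2.01 and -2.16 at E16.5, a change of -1.05 (SE 0.06, adjusted p = 4.82e-05, limma). H2bc7 had -0.68 and -0.75, then -1.22 and -1.30, a change of -0.54 (SE 0.05, adjusted p = 0.000641). In both the groups were well apart. The probes share 28 bases, and H2B genes are near copies of each other, so that neither value can be assigned to a single gene with certainty. H4c8, for histone H4, changed by -0.21 (adjusted p = 0.0319) in its brighter probe and by -0.08 (adjusted p = 0.557) in its dimmer probe. H4c8 is therefore not settled by its probes. H2ac18, H2bc11 and H4c3 had values of -0.07, -0.08 and -0.14 and were not past the threshold. Only placed probes were read here. Probes without a place may read histone transcripts too, so these values do not describe histone transcripts as a whole. Of the 6 histone genes, 3 had their brighter or only probe called lower and 0 higher, beside 11.3% of all probes called lower. These 3 are H4c8 and the H2B pair that cannot be told apart. The H2bc15 probe held 66.7% G and C, and 32.9% of the placed probes with at least 60% were called lower. The median of the 6 was -0.17 in wild type and -0.29 in the transgenic footpads.

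Genes for RNA processing and metabolism gave mixed counts. Snrpf, a core protein of spliceosomal small nuclear ribonucleoproteins, changed by -0.68 (SE 0.04, adjusted p = 0.000105), with ratios of -0.31 and -0.30 at E15.5 and -1.01 and -0.96 at E16.5. Snu13 and Rtraf were also lower, by -0.15 and -0.26, and the other 5 genes of the group, among them Hnrnpa1 at -0.06, were not past the threshold. Sord, which oxidises sorbitol to fructose, changed by -0.73 (SE 0.06, adjusted p = 0.000338). Nme2, a nucleoside diphosphate kinase, changed by -0.45 (adjusted p = 0.00183), and the other 5 of 7 metabolic genes were not past the threshold. Ndufa11, a subunit of mitochondrial complex I, changed by -0.62 (SE 0.05, adjusted p = 0.000338), from -1.13 and -1.14 to -1.69 and -1.82. Ndufb11, a subunit of the same complex, changed by 0.21 (adjusted p = 0.0165), and Ndufa9 had 0.01 and was not past it. The rise of Ndufb11 lost its call in Cy3 alone (0.12, adjusted p = 0.139, limma) and with median centring (0.13, adjusted p = 0.547). The few complex I probes read here gave no common direction and do not describe the complex as a whole.

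Redox and cytoskeletal genes were represented by a few probes. Mif, a cytokine with tautomerase activity, changed by -0.46 (adjusted p = 0.00173), Cyba, the small subunit of NADPH oxidase cytochrome b, by -0.38 (adjusted p = 0.00136), and Gstp1, a glutathione transferase, by -0.20 (adjusted p = 0.0245). Prdx1, a peroxide-reducing enzyme, changed by -0.40 (adjusted p = 0.00359) at its start, and by 0.02 (adjusted p = 0.858) in a second probe, so the gene is not settled. Of 13 genes for cytoskeleton and matrix, 2 were lower and 0 higher, a share near the 11.3% of all probes that fell: Actg1, cytoplasmic gamma actin, at -0.32 (adjusted p = 0.0164), and Kif3c, a kinesin motor, at -0.37 (adjusted p = 0.00603, well above background on 2 of 4 arrays). Pax7 had ratios of -0.65 and -0.52 at E15.5 and -0.93 and -1.01 at E16.5, a change of -0.38 (SE 0.06, adjusted p = 0.00435), and -0.41 in the transgenic footpads. Its probe, 26 bases into the gene, held 68.3% G and C.

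The largest fall among the placed genes was that of Cfap410, a protein of the ciliary base, at chr10:77978615-77978674 on the plus strand. Its ratios were 0.03 and 0.03 at E15.5 and -1.17 in E16.5 replicate 1; replicate 2 was flagged as an outlier spot and left out. The change was -1.20 (SE 0.05, adjusted p = 5.02e-05), with 75% G and C in the probe. Without E16.5 replicate 1 it had no value. Ntng1, a membrane-anchored guidance molecule of neurons, was the placed gene with the highest ratio to the reference among the named falls, at 5.47 ± 0.06 (SD, n = 2) at E15.5, and it changed by -0.49 (adjusted p = 0.00297).

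Rises among the placed genes were few and smaller. Zbtb22, a zinc finger protein of the BTB family, had ratios of -0.16 and -0.13 at E15.5 and 0.16 and 0.18 at E16.5, a change of 0.32 (SE 0.04, adjusted p = 0.00312, limma). Fam180a rose by 0.31 (SE 0.05, adjusted p = 0.00465), from -0.83 and -0.75 to -0.48 and -0.48. These 2 kept their calls without any 1 of the wild-type arrays. With median centring all 8 named rises lost theirs, Zbtb22 at 0.22 (adjusted p = 0.234) and Fam180a at 0.24 (adjusted p = 0.164). Tor1aip2, a cofactor of torsin ATPases, rose by 0.38 (adjusted p = 0.0386), Rab7, a GTPase of late endosomes, by 0.34 (adjusted p = 0.00852), and Trmt112, which activates several methyltransferases, by 0.27 (adjusted p = 0.0147). Dclre1b, a telomere nuclease, Ndufb11 and Rab22a, an endosomal GTPase, rose by 0.21, 0.21 and 0.18. Without E15.5 replicate 1, 5 of the 8 were no longer called, without replicate 2, 6, without E16.5 replicate 1, 4, and without replicate 2, 6, with adjusted p of 0.0523 to 0.222. Rab22a lost its call under 15 of 18 alternatives. Plet1, a surface marker of epithelial progenitors, had 2.85 and 2.87 at E15.5 and 3.20 and 3.24 at E16.5, a value of 0.36 that was not past the threshold (adjusted p = 0.0721). None of 7 tested probes in olfactory receptor genes was called, of 27 placed there.

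For the falls and rises that carry most of the account, 30 matched bases of each probe are printed with their GRCm38.p6 places, credited to RefSeq.
H2bc15, chr13:21754130-21754159, plus strand: aacccgctaagtccgctcccgccccgaaga
H2bc7, chr13:23574148-23574177, minus strand: ctaagtccgctcccgccccgaagaagggct
Sec61b, chr4:47474670-47474699, plus strand: atctacgagagttctgagtgctcggcaact
Snrpf, chr10:93589619-93589648, minus strand: tctcttagcgcgggtcgcttggttgtagcg
Fau, chr19:6057955-6057984, plus strand: ttcttgactccatcttcgcggtagcagcag
Ndufa11, chr17:56717818-56717847, plus strand: ggccgagcaagcccagctaggtatggcgat
Zbtb22, chr17:33919254-33919283, plus strand: gacacaaggtgggagccgcgtagtataggt
Fam180a, chr6:35313025-35313054, minus strand: cccaaagccatgaagaagactctgtatttt
The stretch that H2bc15 and H2bc7 have in common is visible in their lines. The probes of Sec61b, Snrpf and Fau start 8 to 10 bases from the annotated gene start. Those of Zbtb22 and Fam180a start 3078 and 13087 bases into the gene.

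The age change was broadly shared by the transgenic footpads. Of the wild-type calls, 4650 were called in the same direction there, which is 67.7% of 6873 wild-type calls and 42.9% of 10835 transgenic calls, and 52 were called in the opposite direction. The comparisons use separate arrays of the same reference RNA. Both E15.5 groups lie on 1 slide, and each E16.5 group lies on a slide of its own. Of the 54 risers of at least 2-fold, 51 were called higher in the transgenic footpads, with a median change of 2.12 against 1.35 in wild type. Of the 51 fallers, 44 were called lower, with a median of -0.56 against -1.22. Over all tested probes, 16.3% were called higher and 18% lower in the transgenic footpads. Fallers were chosen on the wild-type values, so a smaller change in the other genotype is no finding by itself.

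**Figure D5:**
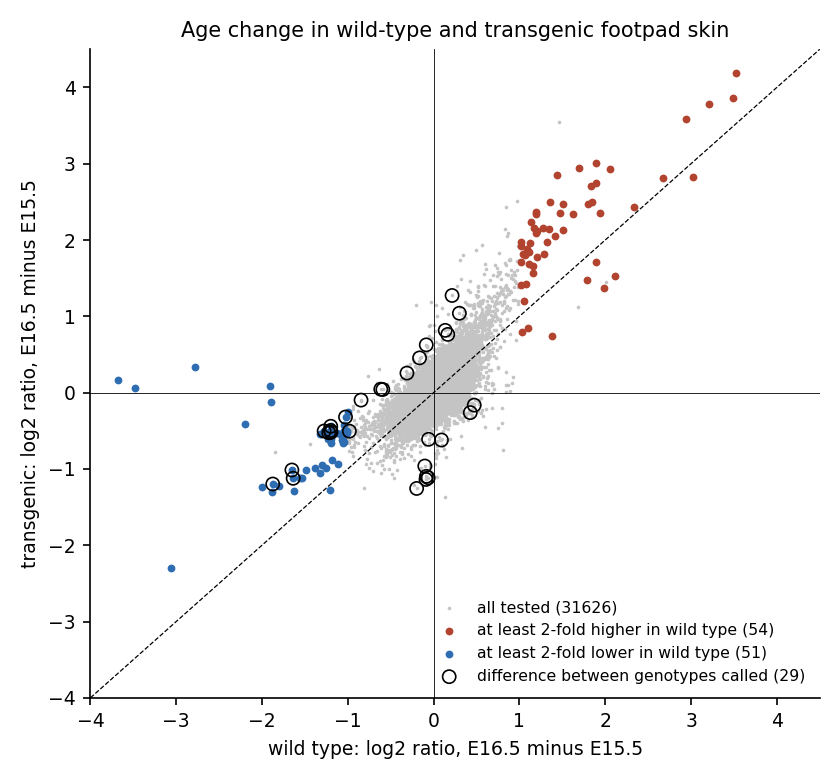
Age change in the transgenic footpads (vertical) against that in wild type (horizontal), both as log2 ratio at E16.5 minus E15.5, for 31626 probes in grey, with probes that changed at least 2-fold in wild type in colour and a dashed line of equality. Most of the 54 risers lie above the line, and the 29 circled probes are those whose difference between genotypes was called.

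Tested directly, the age change differed between genotypes in 29 probes (0.0917% of 31626), while 5989 had an unadjusted p under 0.05. At E16.5 the genotypes lay on separate slides with separate scan days, so genotype and slide cannot be told apart in this difference. In 20 the wild-type change was the more negative. Among these 20 is the fall whose net Cy3 intensity rose, with a difference of 1.57 in Cy3 alone and 2.52 in Cy5 alone. The 20 also include 7 of the falls rich in G and C, 1 of which is Cfap410, with -1.20 in wild type and -0.52 in the transgenic footpads (difference -0.68, SE 0.07, adjusted p = 0.0454, limma). The largest difference was that of Gm36608, a predicted gene without a described product. Its ratios in wild type were 0.65 and 0.43 at E15.5 and 0.73 and 0.78 at E16.5, a change of 0.21 (adjusted p = 0.11), against 1.27 in the transgenic footpads (difference -1.06, SE 0.12, adjusted p = 0.0454). Its net Cy3 intensity on the wild-type arrays was 31.1 to 53.2, so the spot is dim. The adjusted p of all 29 lay close to the threshold, and the number of calls was 0 without E15.5 replicate 1, 0 without E15.5 replicate 2, 89 without E16.5 replicate 1 and 16 without E16.5 replicate 2. Without a transgenic array it was 0 and 5 at E15.5 and 103 and 1 at E16.5. Unadjusted p values under 0.05 then numbered 3936 to 6393.

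In the other 9 the wild-type change was the more positive, and 7 of them share the bases CCTAACC, read on the probe strand and noticed after the values were seen. Of the tested probes 97 (0.307%) hold these bases. The printed stretches, with the shared bases in capitals, differ around them.
Difference 1.06: aacacctgaacCCTAACCtccaaccatgga
Difference 1.05: ttcctcgcaccCCTAACCctttgcttctta
Difference 1.05: cactcCCTAACCccactgatagatctacaa
Difference 1.01: ttgtcgggttcCCTAACCcctacctctgac
In wild type these 7 barely moved in the ratio, with changes of -0.20 to 0.09, and none passed the threshold. In the transgenic footpads they changed by -1.26 to -0.61. In wild type both channels alone moved together in them, Cy3 by -0.01 to 0.61 and Cy5 by 0.06 to 0.80. In the transgenic footpads Cy5 was higher by 0.32 to 1.15 while Cy3 went from -0.71 to 0.09. Over all 97 probes with the bases, the median change was -0.02 in wild type and -0.15 in the transgenic footpads. The 7 are among the 97. Their median difference was 0.15 over the 97, with 0.13 in Cy3 alone and -0.08 in Cy5 alone. It was positive in 73.2% of the 97, against 49.6% of all probes. The 46 tested probes with the reverse complement GGTTAGG had a median difference of 0.01.

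Some probes were well above background at 1 age only. There were 22 that were so on both arrays at E16.5 and on neither at E15.5, and 1586 the other way round. The direction of their changes is set by this choice, so that no count of calls is given for them. The lowest signal that counted as well above background was higher on the E16.5 arrays, at 6.14 and 6.31 on the normalized log2 scale, than at E15.5, at 6.02 on both, and the share of spots above background was lower there. For a probe not well above background in a group, the fold in Cy3 is a bound: the mean of the bright group against, on each array of the dim group, the higher of the probe's own signal and the lowest signal well above background. The largest such bound among called probes of the 1586 was at least 1.71-fold lower at E16.5, in 1 of the 7 probes not called in the transgenic footpads. Its ratio changed by -1.0 (SE 0.13, adjusted p = 0.00222, limma), and the difference between genotypes was not past the threshold (adjusted p = 0.113).
E15.5 only: agatgactatgcagctacggaacaatcaca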

How the data were processed

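Footpad RNA (Cy3) and a common reference (Cy5) were hybridised to 8 arrays, 2 in each of 4 groups, without dye swap, per the labels' protocols. The deposited scanner files hold spot intensities, mean and local background, extracted with Agilent Feature Extraction 9.5.1.1 per the file headers, and their headers name the build mm7, whose positions were not used. The authors' deposited value table follows log10 of the Cy3 signal; how it was scaled is not given in the sources used here, its median is 2.57 on each of the 8 arrays, it names no direction against the reference, and it served as an alternative.

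From these, intensities were corrected with normexp (offset 50), normalized by loess within each array in limma 3.58.1 (R 4.3.3) with control spots at weight 0, outlier spots left out and spots of a probe averaged. One fit had 4 group means over 8 arrays (4 residual degrees of freedom). P-values are two-sided, adjusted by the Benjamini-Hochberg method for 31626 probes, with a threshold of 0.05. The fit was tested on simulated data. E15.5 to E16.5 changes are log2 differences.

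Probe sequences were matched exactly, on both strands, to RefSeq windows of GRCm38.p6, in place of the planned match to transcripts or proteins. The text names up to 15 rises and 15 falls among genes with a called probe. These needed separate wild-type groups and Cy3 well above background on all 4 wild-type arrays. It also names genes of fixed lists, and up to 5 probes each way above background at 1 age only or differing in change between genotypes. Otherwise 2 probes each way are named. Further placed genes, given by group or singly, fall outside these rules. The groups were made only of genes with a placed probe and were not part of the plan. Members and lists were chosen with earlier results of these data known. Alternatives were other backgrounds, scalings, channels, filters, priors, a replicate block and fits without each array.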

Additional observations from a re-analysis of the deposited data

Results flagged for a closer look

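The test of the difference in age change between wild type and transgenic footpads called 29 probes in limma. Genotype and slide coincide at E16.5 in this test. The largest differences, wild type minus transgenic, were -1.06 (Z00067181-1, in Gm36608), -0.77 (Z00066250-1, 75% G and C), 1.06 (Z00054050-1) and 1.05 (Z00032151-1), the last pair with the shared bases CCTAACC. Their adjusted p was 0.0454 to 0.0455 and reached 0.194 under the alternatives. With 2 arrays a group, no array could be tested as standing apart from its group.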

How the results depend on the processing

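Of the 15 named falls of placed genes, 277 of 278 values under the alternatives kept the direction and the call, the exception being Ntng1 in the deposited value table (adjusted p = 0.0537), and of the 8 rises 101 of 147 kept the call; none of these reversed. One alternative scaling left every ratio as it was, so it repeated the main values and all 6873 calls. Fits that changed only the filter, the prior or the transgenic arrays left the wild-type change unchanged, so its direction was fixed there. Probes called for the wild-type age change numbered 2480 with median centring (920 higher, 1560 lower). Median centring also gave all probes the same spread in the fit, so its calls reflect that as well as the scaling. The deposited value table gave 3225 (1314 and 1911), where fewer probes were tested. At least 2-fold there were 105, and with Agilent's processed signals 1524 were higher. Leaving out 1 array gave 2577 to 6473 (1242 to 3179 higher, 1335 to 3294 lower). For the difference between genotypes, calls numbered 57 without background correction, 1 with Agilent's processed signals, 1735 with median centring, which moved the median of all probes to -0.15, 83 with the stricter filter, 73 with a trended, robust prior, 17 with the replicate block, and 0 to 103 without 1 array. In limma 0 were called with Cy3 alone, in the value table and with no filter, with 4985, 3542 and 6399 at an unadjusted p under 0.05. Placed genes called higher were 3, 2 and 3 with Agilent's processed signals, median centring and the value table, which called 10 lower, and 2 to 12 higher and 27 to 37 lower without 1 array. The causes were not tested. Replicate numbers did not pair the arrays (correlation of deviations -0.02), and the replicate block gave 6494 calls for the wild-type age change. Dim probes and those not above background limit what 2 arrays a group can show.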
